A study of Mus musculus with 48 samples.

Results

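Oxidative phosphorylation was followed through 85 genes that encode, or are named for, subunits of the 5 complexes of the mitochondrial inner membrane. They were taken by name from the 54735 genes of the RNA-seq count tables: 107 names began with Nduf plus a subunit letter and number, Cox4 to Cox8 plus a letter, Atp5, Uqcr, Sdha to Sdhd, or mt- followed by Nd, Co, Cytb or Atp, and 85 of these had at least 50 counts summed over 24 libraries. The members comprised 78 genes of the nuclear genome and 7 of the mitochondrial genome, and fell into complex I (41 genes), complex II (4), complex III (9), complex IV (13) and complex V (18). By their names 80 were subunits, 2 were annotated as pseudogenes (Ndufb1-ps and Atp5k-ps2), 2 were factors that act beside a complex (Atp5s and Cox7a2l), and 1 was an isoform known from testis (Cox6b2). The name rule passes over Cox4i1, Cox4i2, Ndufab1, Cyc1 and Cycs, which are described with the other pathway genes.

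The libraries came from cells sorted from the spleen of male Balb/c mice aged 10 weeks, 4 WT mice and 4 mice labelled IL1RL1-/-, a name that stands for loss of the interleukin-33 receptor. Monocytes were sorted as Ly6Glo CD11bhi F4/80-, precursors of red pulp macrophages (pre-RPMs) as Ly6Glo CD11bhi F4/80lo, and red pulp macrophages (RPMs) as Ly6Glo CD11blo/- F4/80hi. Each of the 6 groups held 4 libraries, each library came from a single mouse, and the sorted populations of 1 genotype share their mouse numbers. The comparisons ask how the transcripts changed along monocyte, pre-RPM and RPM, and whether the genotype altered that course.

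Complexes I to IV pass electrons from NADH and succinate to oxygen, all of them but complex II pump protons across the inner membrane, and complex V lets the protons flow back to make ATP. Complex II is encoded wholly in the nucleus, whereas the others combine nuclear subunits with a few core subunits translated inside the mitochondrion from its own genome. RPMs are the splenic macrophages that engulf aged erythrocytes and recycle their iron, and heme and iron–sulfur clusters are built and used in mitochondria.

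Only 7 of the 13 protein-coding genes of the mitochondrial genome reached 50 counts. The 6 under the minimum were mt-Co2 (36 counts over 24 libraries), mt-Co3 (11), mt-Atp6 (9), mt-Atp8 (9), mt-Nd3 (9) and mt-Nd4l (1), whereas mt-Co1, a neighbour on the same strand, had 176355. These 6 genes lie together between positions 7013 and 10173 of the mitochondrial genome (GRCm38), and a nuclear copy of that stretch lies on the minus strand at chr1:24611535-24616184. The copy spans 4650 bases and corresponds to mitochondrial positions 6394 to 11042. Its first part was identical at 3412 of 3413 aligned bases and its second part at 1166 of 1166. The first 60 bases of mt-Co2 are printed here, once from each genome, because they show how far the copies agree; letters would be in capitals where they differed, and there were 0 differences.
mt-Co2, MT:7013-7072, plus strand: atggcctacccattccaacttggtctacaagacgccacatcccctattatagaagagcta
nuclear copy, chr1:24615506-24615565, minus strand: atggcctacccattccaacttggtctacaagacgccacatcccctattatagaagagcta

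The reads were 50 bases long and sequenced in pairs. The share of a gene's 50-base windows that also occur elsewhere in the genome separated the 6 sparse genes from the members. A window stands for a single read, so the share does not take the second read of a pair into account. That share was 100% for mt-Co2, mt-Co3, mt-Atp6, mt-Atp8 and mt-Nd4l and 99.0% for mt-Nd3. Among the 7 mitochondrial members it was 62.2% for mt-Nd4, 51.1% for mt-Co1, 8.3% for mt-Nd2 and 7.6% for mt-Nd5, and no such window was found for mt-Nd1, mt-Nd6 or mt-Cytb. The copied stretch covers 63.6% of the bases of mt-Nd4 and 31.0% of those of mt-Co1. The methods name default parameters for the aligner and no option of the counting step for reads with several positions. In all, 7 genes annotated inside the nuclear copy held 2301 counts. The counts of the 6 sparse genes were not read as levels, so no mitochondrial gene of complex V entered the comparisons. Nuclear members with shared windows above 20% were Cox7a2l (44.7%), Ndufs5 (40.0%), Atp5g2 (30.8%), Uqcrb (28.1%), Atp5g1 (26.0%), Cox7c (25.9%) and Cox8a (20.4%); how their shared reads were counted is not given in the sources used here.

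**Figure D1:**
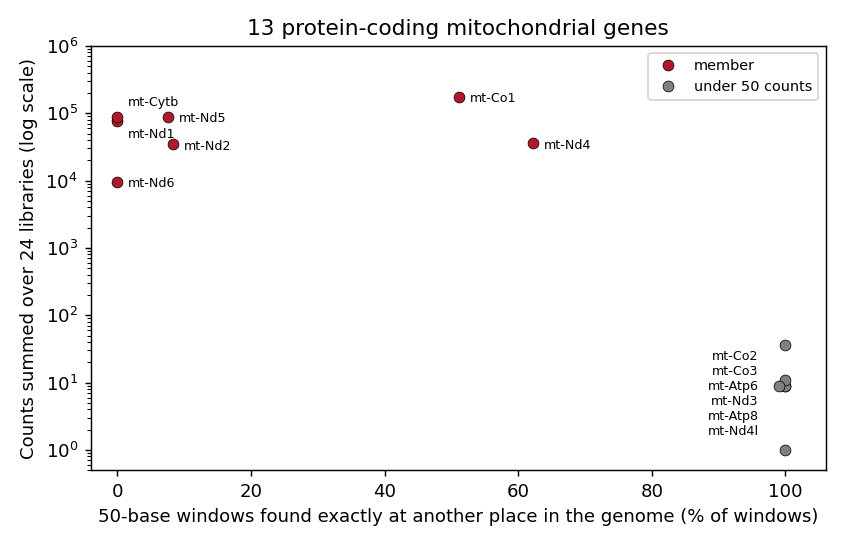
Counts summed over 24 libraries (log scale) against the share of 50-base windows found at another place in the genome, for the 13 protein-coding genes of the mitochondrial genome. The 6 genes under 50 counts sit at 99.0% to 100%, and the 7 members at 62.2% or less.

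The libraries held between 3562367 and 6559454 counts assigned to genes (median 4728764.5). Gm42418, a locus that overlaps ribosomal RNA, took 24.4% to 38.8% of them, and the 2 mitochondrial rRNAs took 5.21% to 9.86%. The 7 mitochondrial members took 0.284% to 0.778% of a library and the 78 nuclear members 0.137% to 0.226%, so between 5272 and 11012 counts described the nuclear members in a library. WT monocyte library 1 stood apart in its composition, with the largest scaling factor (1.38), the highest share of nuclear members (0.226%) and, among monocytes and pre-RPMs, the highest share of mitochondrial members (0.594%). Summed levels of the monocyte list (7 genes) were 340.1 to 1118 CPM in WT monocytes, 999.7 to 1249 CPM in WT pre-RPMs and 6.95 to 28.3 CPM in WT RPMs. Those of the RPM list (7 genes, among them the factor Spic and the adhesion molecule Vcam1) were 33.9 to 70.4, 96.4 to 223.8 and 4612 to 6165 CPM. Both lists thus set RPMs apart, whereas the monocyte list was not higher in WT monocytes than in WT pre-RPMs. Monocyte libraries also held transcripts of natural killer cells (423.8 to 1611 CPM over 5 genes in both genotypes), neutrophils (718.7 to 2422 CPM over 6 genes) and plasma cells (326.8 to 1702 CPM over 3 genes). RPM libraries held erythroid transcripts (7 genes, among them Hba-a1 and Hbb-bs), at 1881, 1265, 22160 and 9294 CPM in WT and 2612, 832.8, 10530 and 14340 CPM in the group labelled IL1RL1-/-.

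The counts of Il1rl1 did not follow the genotype labels in all populations. In the RPM libraries labelled IL1RL1-/- they were 1, 7, 3 and 6, against 5, 9, 7 and 13 in WT. In monocytes the libraries labelled IL1RL1-/- had 51, 73, 71 and 64 counts and those of WT 28, 19, 12 and 13, and in pre-RPMs 50, 76, 42 and 65 against 18, 15, 13 and 24. Counts over a whole gene can include parts outside a deletion, and which part was deleted is not given in the sources used here. Directions between genotypes below rest on the labels.

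Mitochondrially encoded transcripts stood well above nuclear ones in every population. Levels between genes were compared as CPM, that is counts scaled to library size with TMM factors, per kilobase of counted exon (CPM per kb). In WT RPMs the order was mt-Co1 (1491 ± 156.5 CPM per kb, SD, n = 4), mt-Cytb (1110.0 ± 194.1), mt-Nd1 (1093 ± 100.3), mt-Nd5 (698.3 ± 58.5), mt-Nd2 (472.2 ± 73.7), mt-Nd4 (357.0 ± 54.1) and mt-Nd6 (260.2 ± 43.3). The levels of mt-Cytb and mt-Nd1 differed by less than their spread and changed places in the other groups, whereas mt-Co1 was first in all 6. The highest nuclear levels in WT RPMs were those of Atp5k-ps2 (58.4 ± 13.1 CPM per kb), Atp5a1, the alpha subunit of ATP synthase (52.5 ± 6.33), and Cox8a (51.2 ± 7.59), which did not differ beyond their spread. Exon lengths here are the union of all annotated exons, retained introns included, which lowers the value for genes with long annotated forms.

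The balance between the genomes shifted at the RPM stage. The ratio of mitochondrial to nuclear member counts was 2.63, 2.11, 1.83 and 2.01 in the WT monocyte libraries, 2.22, 2.04, 2.02 and 2.53 in WT pre-RPMs and 4.23, 4.36, 4.51 and 5.29 in WT RPMs. Every WT RPM library was above every WT monocyte and pre-RPM library, and the mean ratio in RPMs (4.60 ± 0.478, SD, n = 4) was 2.09 times that in pre-RPMs (2.20 ± 0.235). In the groups labelled IL1RL1-/- the ratio was 2.05, 1.99, 1.99 and 2.26 in monocytes, 2.45, 2.34, 2.33 and 2.74 in pre-RPMs and 3.61, 2.90, 3.34 and 4.21 in RPMs. Each of these RPM libraries was above the pre-RPM libraries, and each pre-RPM library above the monocyte libraries, with mean ratios of 2.07, 2.46 and 3.51. The RPM libraries labelled IL1RL1-/- all lay below the WT RPM libraries, with a ratio of the means of 0.764. Without mt-Co1 and mt-Nd4, which overlap the nuclear copy, the ratio of the means was much the same (0.766), but the groups overlapped, as the ratios ranged from 1.75 to 2.54 in the RPMs labelled IL1RL1-/- and from 2.49 to 3.17 in WT RPMs. No test was made on these ratios, which are sums over the members.

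**Figure D2:**
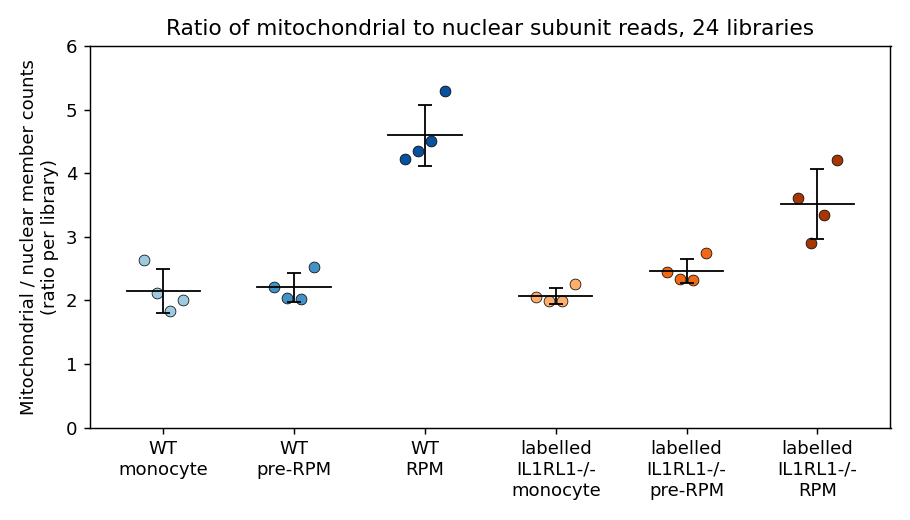
Ratio of mitochondrial to nuclear member counts in each of 24 libraries (points), with the group mean (long line) and SD (error bar), n = 4 per group. The WT RPM libraries sit between 4.23 and 5.29, above all other libraries of both genotypes.

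In RPMs the counts of the mitochondrial rRNAs, made from the same genome, changed less than those of the mitochondrial members. The methods name a SMARTer stranded total RNA-Seq kit (Takara) and do not say whether rRNA was removed. Counts of rRNA may thus not follow rRNA levels. The ratio of mitochondrial member counts to rRNA counts was 0.0725 to 0.0789 in WT RPMs, 0.0687 to 0.0728 in RPMs labelled IL1RL1-/- and 0.0402 to 0.0617 in all monocyte and pre-RPM libraries. Between WT pre-RPMs and RPMs, mt-Rnr1 differed by 0.08 ± 0.19 (SE, adjusted p = 0.758) and mt-Rnr2 by 0.20 ± 0.18 (SE, adjusted p = 0.38) on the log2 scale, and neither passed the test, although their share of the counts in WT RPMs (7.98% to 9.86%) was above that in WT pre-RPMs (5.21% to 7.90%). Erythroid transcripts also rose in RPMs, and their part in the result was not tested. Among the WT RPM libraries, 3 and 4 held more of them than 1 and 2 and also had the higher ratios of mitochondrial to nuclear members (4.51 and 5.29, against 4.23 and 4.36), although 3 held the most. In the RPMs labelled IL1RL1-/- library 2, with the least (832.8 CPM), had the lowest ratio (2.90) and library 4, with the most (14340 CPM), the highest (4.21). The pre-RPM libraries with the same label had ratios of 2.33 to 2.74 and held 10.17 to 33.18 CPM of erythroid transcripts. In bulk libraries of sorted cells, fewer cells of a type and less RNA per cell cannot be told apart.

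All 7 mitochondrial members rose from WT pre-RPMs to WT RPMs, tested with edgeR's quasi-likelihood test and called at a Benjamini-Hochberg adjusted p under 0.05 over all genes. Over all 11239 genes tested in that comparison 25.6% were called higher and 24.8% lower. The members' median log2 fold change was 0.93, against 0.00 for all genes tested.

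Among the complex I subunits of the mitochondrial genome, which form the proton-pumping membrane arm, mt-Nd5 had the largest change. Its levels were 640.6, 578.8, 590.6 and 696.8 CPM in WT pre-RPMs and 1179.9, 1183, 1366 and 1366 CPM in WT RPMs, a log2 fold change of 0.98 ± 0.13 (SE, adjusted p = 2.5e-05). The groups did not overlap, and RPM libraries 3 and 4 were the highest. The level of mt-Nd1 was 522.9, 521.8, 508.2 and 576.1 CPM and 982.04, 947.3, 1108 and 1145 CPM in the same groups, with a log2 fold change of 0.93 ± 0.13 (SE, adjusted p = 3.07e-05). That of mt-Nd2 was 251.2, 248.4, 230.5 and 259.3 CPM and 430.9, 420.01, 535.7 and 574.1 CPM, a log2 change of 0.94 ± 0.14 (SE, adjusted p = 4.37e-05). Both genes showed the same order of libraries, with RPM libraries 3 and 4 above 1 and 2. For mt-Nd4 the levels were 273.5, 246.6, 262.3 and 281.9 CPM and 430.5, 425.7, 541.9 and 569.5 CPM, a change on the log2 scale of 0.84 ± 0.13 (SE, adjusted p = 0.000115). The least abundant member, mt-Nd6, is the only one read from the opposite strand, and rose from 70.5, 63.6, 68.4 and 74.3 CPM to 109.2, 130.8, 163.8 and 136.4 CPM, by 0.92 ± 0.13 (SE, adjusted p = 3.53e-05). In WT monocytes library 1 held 120.4 CPM of it and the other libraries 51.2 to 68.9 CPM.

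The other mitochondrial members encode redox cores. The single mitochondrial subunit of complex III, cytochrome b (mt-Cytb), was at 606.9, 585.6, 513.6 and 657.8 CPM in WT pre-RPMs and 1127, 1033, 1454 and 1464 CPM in WT RPMs, a log2 fold change of 1.06 ± 0.16 (SE, adjusted p = 5.56e-05), the largest of the 7. The catalytic subunit of complex IV, mt-Co1, was at 1390.0, 1315, 1377 and 1439 CPM and 2251, 1994, 2416 and 2556 CPM, a change on the log2 scale of 0.69 ± 0.14 (SE, adjusted p = 0.000662), the smallest of the 7. In neither gene did the groups overlap.

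In the libraries labelled IL1RL1-/- all 7 mitochondrial members were again called higher in RPMs than in pre-RPMs, with a median log2 fold change of 0.56. Over all 11437 genes tested 27.3% were called higher and 26.7% lower. The level of mt-Nd1 was 543.7, 574.1, 538.5 and 599.9 CPM in pre-RPMs and 888.4, 701.9, 858.04 and 1003 CPM in RPMs, with 0.56 ± 0.11 (SE, adjusted p = 0.000663). That of mt-Nd2 was 262.3, 239.8, 249.8 and 252.98 CPM and 429.5, 291.9, 391.4 and 479.4 CPM, a log2 change of 0.61 ± 0.13 (SE, adjusted p = 0.000989). RPM library 2 was the lowest of its group for both genes, and the groups did not overlap. The level of mt-Cytb was 640.4, 610.5, 586.7 and 723.1 CPM and 1048, 759.5, 961.8 and 1343 CPM, a log2 change of 0.63 ± 0.15 (SE, adjusted p = 0.00205). That of mt-Nd5 was 693.6, 692.8, 633.8 and 741.4 CPM and 1073, 771.1, 960.4 and 1185 CPM, a log2 change of 0.48 ± 0.13 (SE, adjusted p = 0.00481). Library 4 was the highest of the RPM group for both. The level of mt-Nd6 was 63.6, 64.4, 60.7 and 69.3 CPM and 104.2, 86.8, 81.4 and 127.4 CPM, a log2 change of 0.57 ± 0.13 (SE, adjusted p = 0.00143). For the 2 genes that overlap the nuclear copy RPM library 2 reached into the pre-RPM range: mt-Nd4 was at 284.5, 286.4, 274.5 and 297.5 CPM and 405.99, 290.4, 374.8 and 477.7 CPM (0.38, adjusted p = 0.0201), and mt-Co1 at 1364, 1383, 1308 and 1444 CPM and 1912, 1422, 1813 and 2249 CPM (0.37, adjusted p = 0.0226). Both calls were lost without pre-RPM library 1, pre-RPM library 3 or RPM library 4.

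**Figure D3:**
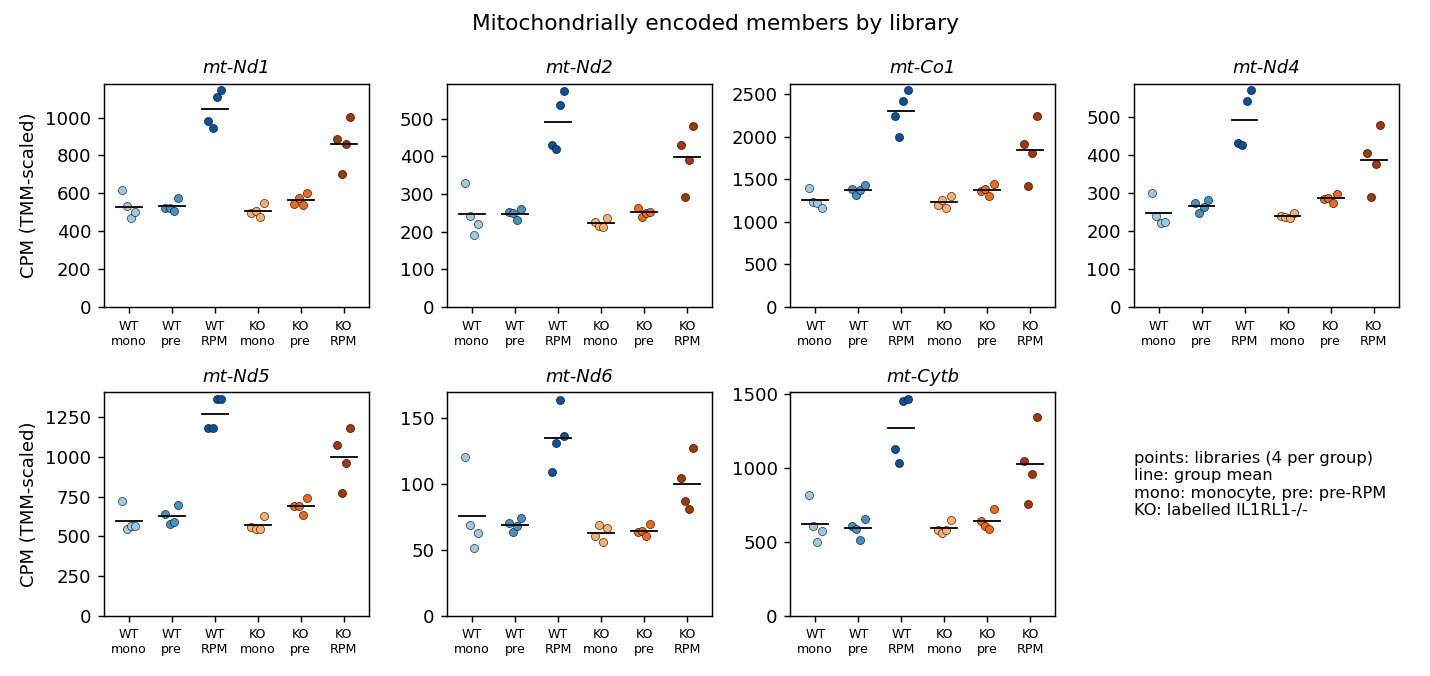
Level (CPM, TMM-scaled) of each of the 7 mitochondrial members in 24 libraries (points), with the group mean (line), 4 libraries per group. In all 7 panels the WT RPM libraries lie above the WT pre-RPM libraries, and the RPM libraries labelled IL1RL1-/- (KO in the panels) overlap the WT RPM libraries.

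Nuclear members did not move with the mitochondrial ones. Of 76 nuclear members tested between WT pre-RPMs and RPMs, 7 were called higher and 21 lower, where 25.6% of all genes were called higher and 24.8% lower. The nuclear members called lower were thus near the share of all genes and those called higher below it, and their median log2 fold change was -0.26 against 0.00 for all genes. The filter on low counts left out Cox6b2 and Atp5s. The 78 nuclear members together summed to 1692 ± 82.3 CPM in WT pre-RPMs and 1527 ± 116.9 CPM in WT RPMs (SD, n = 4), while the 7 mitochondrial members summed to 3713 ± 204.7 CPM and 7010.0 ± 815.1 CPM. Scaling by library totals in place of TMM moved the median of all genes by 0.22 in this comparison. Between WT pre-RPMs and monocytes that median moved by -0.36. The split of called members turned from 14 higher and 21 lower into 16 higher and 7 lower. Over all 11239 genes, 3510 were then called higher and 1665 lower, against 2878 and 2785 with TMM. The direction of small nuclear changes thus depends on the scaling.

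**Figure D4:**
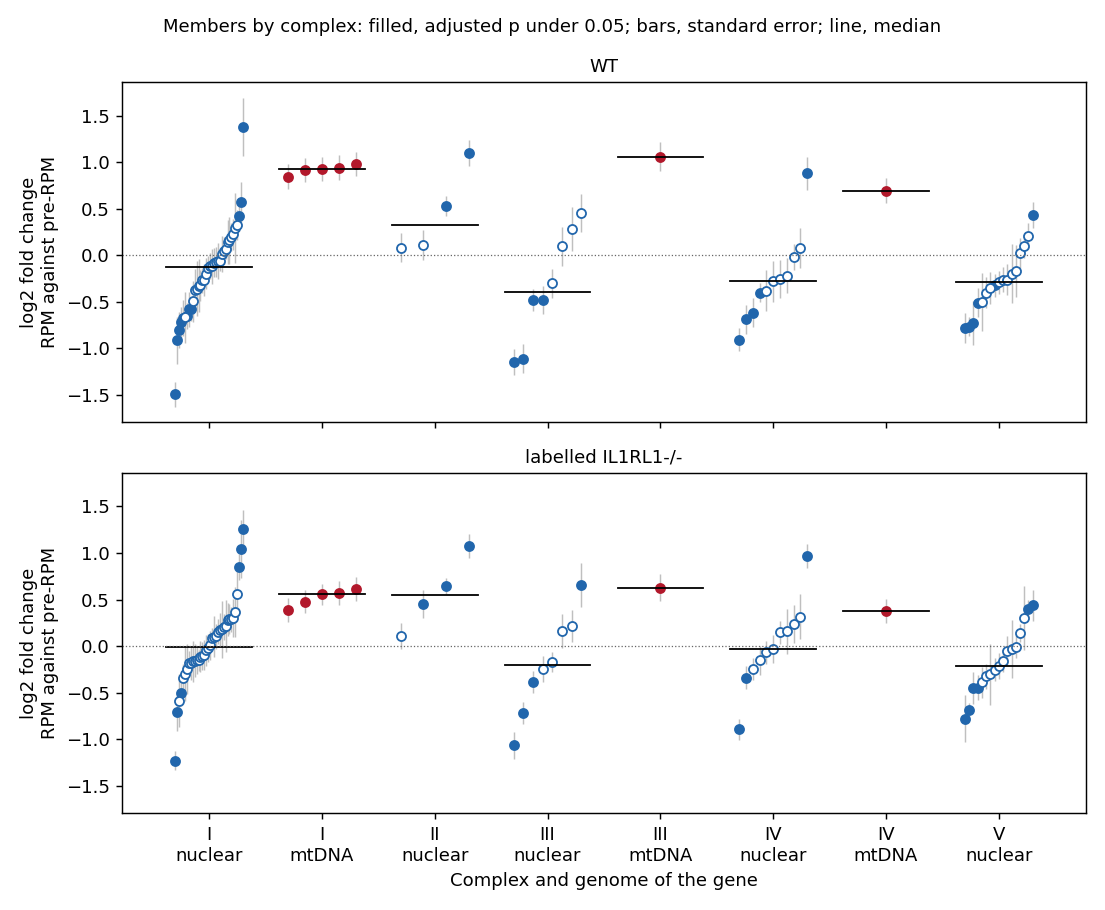
Log2 fold change of each tested member between RPMs and pre-RPMs, by complex and genome, for WT (upper panel) and for libraries labelled IL1RL1-/- (lower panel). Filled points passed an adjusted p of 0.05, bars are standard errors and lines are medians, which in WT were 0.93 for the mitochondrial members of complex I and -0.13, -0.39, -0.28 and -0.29 for the nuclear members of complexes I, III, IV and V.

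Complex II oxidises succinate in the tricarboxylic acid cycle and feeds its electrons to ubiquinone. It was the only complex whose nuclear members had a median above 0 in WT RPMs against pre-RPMs (0.32 over 4 genes). Of these, 2 were called higher and 0 lower, where 25.6% of all genes were called higher and 24.8% lower. Sdhc, a membrane anchor (chr1:171127165-171150603, minus strand), was at 16.8, 17.97, 16.3 and 18.7 CPM in WT monocytes, 14.4, 11.3, 12.3 and 9.999 CPM in WT pre-RPMs and 27.9, 26.05, 26.2 and 26.1 CPM in WT RPMs. The RPM libraries were within 2 CPM of each other and above all others, and the log2 fold change from pre-RPMs was 1.10 ± 0.14 (SE, adjusted p = 1.05e-05). Sdha, the flavoprotein that binds succinate (chr13:74322254-74350280, minus strand), was at 66.1, 68.3, 60.1 and 66.7 CPM, 58.2, 54.1, 60.1 and 53.1 CPM and 85.9, 71.2, 87.9 and 90.7 CPM, with a log2 fold change of 0.53 ± 0.11 (SE, adjusted p = 0.000962) from pre-RPMs to RPMs. Here too each RPM library was above each pre-RPM library. The other subunits had overlapping groups: Sdhb, the iron–sulfur subunit, was at 20.004, 20.5, 18.4 and 20.95 CPM and 19.7, 16.7, 28.1 and 23.3 CPM (log2 fold change 0.08, adjusted p = 0.702). Sdhd, the second membrane anchor, was at 16.3, 17.6, 13.5 and 19.5 CPM and 18.6, 15.3, 23.5 and 17.5 CPM (log2 fold change 0.11, adjusted p = 0.609).

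Under the label IL1RL1-/- 3 of 4 complex II genes were called higher in RPMs, where 27.3% of all genes were called higher and 26.7% lower. Sdhc was at 10.4, 13.9, 15.5 and 13.6 CPM in pre-RPMs and 31.2, 29.6, 29.8 and 26.4 CPM in RPMs, with 1.08 ± 0.13 (SE, adjusted p = 3.6e-06), and Sdha at 56.3, 53.4, 56.3 and 54.4 CPM and 98.6, 81.4, 84.9 and 93.5 CPM, a log2 change of 0.65 ± 0.09 (SE, adjusted p = 2.1e-05). Neither gene overlapped between the groups. Sdhd was at 11.4, 15.6, 13.4 and 14.7 CPM and 17.9, 16.8, 23.5 and 21.1 CPM, a log2 change of 0.45 ± 0.15 (SE, adjusted p = 0.0187), a call that was lost under DESeq2 and without pre-RPM library 1 or RPM library 3. Sdhb was at 17.5, 24.8, 22.03 and 16.96 CPM and 24.4, 21.7, 20.4 and 24.7 CPM, a log2 change of 0.11 ± 0.14 (SE, adjusted p = 0.537).

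Complex I, the entry point for electrons from NADH, had 36 nuclear members. Of these, 3 were called higher and 8 lower in WT RPMs against pre-RPMs, where 25.6% of all genes were called higher and 24.8% lower. Those called lower were near the share of all genes. Ndufa6, an accessory subunit of the LYR motif family, had the largest fall of all members: 34.2, 42.5, 40.2 and 38.1 CPM in WT pre-RPMs and 16.5, 13.6, 14.96 and 11.5 CPM in WT RPMs, a log2 fold change of -1.49 ± 0.13 (SE, adjusted p = 4.3e-07). The highest RPM library was at 16.5 CPM and the lowest pre-RPM library at 34.2 CPM. In WT monocytes Ndufa6 was at 26.4, 26.2, 34.6 and 32.8 CPM, which reached into the pre-RPM range but lay above all RPM libraries. Ndufb3, an accessory subunit of the membrane arm, was at 8.84, 7.09, 6.62 and 7.38 CPM and 4.02, 5.09, 2.14 and 4.85 CPM, a change of -0.92 ± 0.25 (SE, adjusted p = 0.00805). The groups did not overlap, but the call was lost when libraries were scaled by their totals. In the other direction, the accessory subunit Ndufa12 was at 2.33, 3.41, 5.88 and 3.09 CPM and 7.20, 7.94, 14.96 and 9.93 CPM, a change of 1.38 ± 0.31 (SE, adjusted p = 0.00204), the largest rise among all members. Ndufa12 libraries varied more than those of Ndufa6: pre-RPM libraries spanned 2.33 to 5.88 CPM and WT monocytes 4.34 to 8.40 CPM. For libraries labelled IL1RL1-/- Ndufa6 was at 37.4, 40.4, 34.8 and 38.8 CPM in pre-RPMs and 15.02, 17.5, 17.5 and 17.04 CPM in RPMs, with -1.23 ± 0.10 (SE, adjusted p = 8.37e-08), and Ndufa12 at 3.55, 4.07, 2.98 and 5.03 CPM and 9.64, 8.66, 10.1 and 11.5 CPM, a log2 change of 1.25 ± 0.21 (SE, adjusted p = 0.000128). The groups did not overlap for either gene. A further pair of members, singled out after their values were seen, was also called higher in both genotypes: Ndufs8, an iron–sulfur core subunit (0.42 and 0.85), and Ndufa5 (0.57 and 1.04), whose WT call was lost with the mouse number as a replicate block (adjusted p = 0.0668).

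Complex III, which passes electrons from ubiquinol to cytochrome c, had 8 nuclear members. Of these, 0 were called higher and 4 lower in WT RPMs against pre-RPMs, where 25.6% of all genes were called higher and 24.8% lower. Uqcrh, the hinge protein beside cytochrome c1, was at 42.6, 59.1, 49.5 and 57.4 CPM in WT pre-RPMs and 24.3, 29.5, 21.1 and 21.7 CPM in WT RPMs, a change of -1.15 ± 0.14 (SE, adjusted p = 9.27e-06). Uqcrfs1, the Rieske iron–sulfur protein, was at 36.8, 32.6, 37.8 and 27.9 CPM and 13.97, 19.3, 17.9 and 13.2 CPM, a change of -1.11 ± 0.15 (SE, adjusted p = 2.88e-05). Neither overlapped between the groups. They had the largest falls of the 8 nuclear members, whose changes ranged from -1.15 to 0.46 with a median of -0.39, and 3 were above 0. In the libraries labelled IL1RL1-/- Uqcrh was at 39.02, 44.6, 39.9 and 48.1 CPM and 32.5, 22.1, 27.4 and 27.3 CPM (-0.72 ± 0.12 SE, adjusted p = 0.000115) and Uqcrfs1 at 40.7, 33.1, 30.1 and 27.2 CPM and 17.5, 15.7, 18.4 and 13.4 CPM (-1.07 ± 0.14 SE, adjusted p = 1.31e-05). Summed over the 8 nuclear members complex III held 203.1 ± 10.8 CPM in WT pre-RPMs and 141.6 ± 13.6 CPM in WT RPMs (SD, n = 4), with no overlap between the libraries.

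Complex IV, cytochrome c oxidase, had 11 tested nuclear members. Of these, 1 was called higher and 4 lower in WT RPMs against pre-RPMs, where 25.6% of all genes were called higher and 24.8% lower. Cox5a, a structural subunit on the matrix side, was at 8.84, 11.3, 10.8 and 9.76 CPM in WT pre-RPMs and 20.3, 14.2, 23.5 and 19.4 CPM in WT RPMs, a change of 0.88 ± 0.18 (SE, adjusted p = 0.000798), and the groups did not overlap. Cox7a2l, known as a factor that joins complexes III and IV into supercomplexes, was at 47.7, 61.98, 50.7 and 55.7 CPM and 29.2, 29.7, 34.2 and 25.6 CPM, a change of -0.91 ± 0.12 (SE, adjusted p = 2.61e-05). Cox6c, a small transmembrane subunit, was at 46.8, 54.4, 43.9 and 31.4 CPM and 32.4, 26.9, 28.1 and 25.4 CPM, a change of -0.69 ± 0.15 (SE, adjusted p = 0.00194). Cox7a2l did not overlap between the groups, whereas pre-RPM library 4 of Cox6c lay within the RPM range. The call for Cox6c was lost when libraries were scaled by their totals. Under the label IL1RL1-/- the changes were 0.97 ± 0.13 (SE, adjusted p = 1.16e-05) for Cox5a, -0.89 ± 0.11 (SE, adjusted p = 6.47e-06) for Cox7a2l and -0.34 ± 0.12 (SE, adjusted p = 0.0305) for Cox6c, the last of which was lost under 8 of 17 alternatives, DESeq2 among them. Cox5a in those libraries was at 13.01, 10.5, 10.1 and 10.4 CPM in pre-RPMs and 24.2, 21.7, 22.6 and 21.3 CPM in RPMs. Cox6b2, the testis isoform, was at 0.163 to 2.42 CPM and was not tested.

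Complex V, the ATP synthase, had 17 tested members, all nuclear. Of these, 1 was called higher and 5 lower in WT RPMs against pre-RPMs, where 25.6% of all genes were called higher and 24.8% lower. Those called lower were near the share of all genes. Atp5e, the epsilon subunit of the central stalk, was at 20.5, 29.4, 18.4 and 20.95 CPM in WT pre-RPMs and 14.6, 12.01, 13.6 and 13.2 CPM in WT RPMs, a change of -0.78 ± 0.16 (SE, adjusted p = 0.00118). Atp5c1, the gamma subunit of the same stalk, was at 55.8, 60.1, 69.9 and 59.8 CPM and 37.9, 35.4, 40.1 and 35.5 CPM, a change of -0.77 ± 0.11 (SE, adjusted p = 3.07e-05). The groups of both genes were separate. Atp5g3, an isoform of the proton-carrying c ring, was at 17.4, 13.7, 16.7 and 13.1 CPM and 22.4, 21.98, 20.04 and 20.3 CPM, a change of 0.43 ± 0.14 (SE, adjusted p = 0.0161) that was lost under DESeq2 and without pre-RPM library 4. For libraries labelled IL1RL1-/- Atp5c1 was at 54.4, 56.1, 58.3 and 55.9 CPM and 35.2, 38.2, 35.96 and 34.9 CPM (-0.69 ± 0.09 SE, adjusted p = 5.33e-06), Atp5e changed by -0.45 ± 0.17 (SE, adjusted p = 0.0366) and Atp5g3 by 0.44 ± 0.16 (SE, adjusted p = 0.0341). The calls of Atp5e and Atp5g3 were lost there under DESeq2 and without some libraries, and that of Atp5c1 was not lost under any alternative that kept the threshold of 0.05. Of the members that are not subunits or are named as pseudogenes, Ndufb1-ps was called lower in both genotypes (-0.68 and -0.71), Atp5k-ps2 in neither (-0.50 and -0.30), and Atp5s, below the filter, had 0 to 1.87 CPM.

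**Figure D5:**
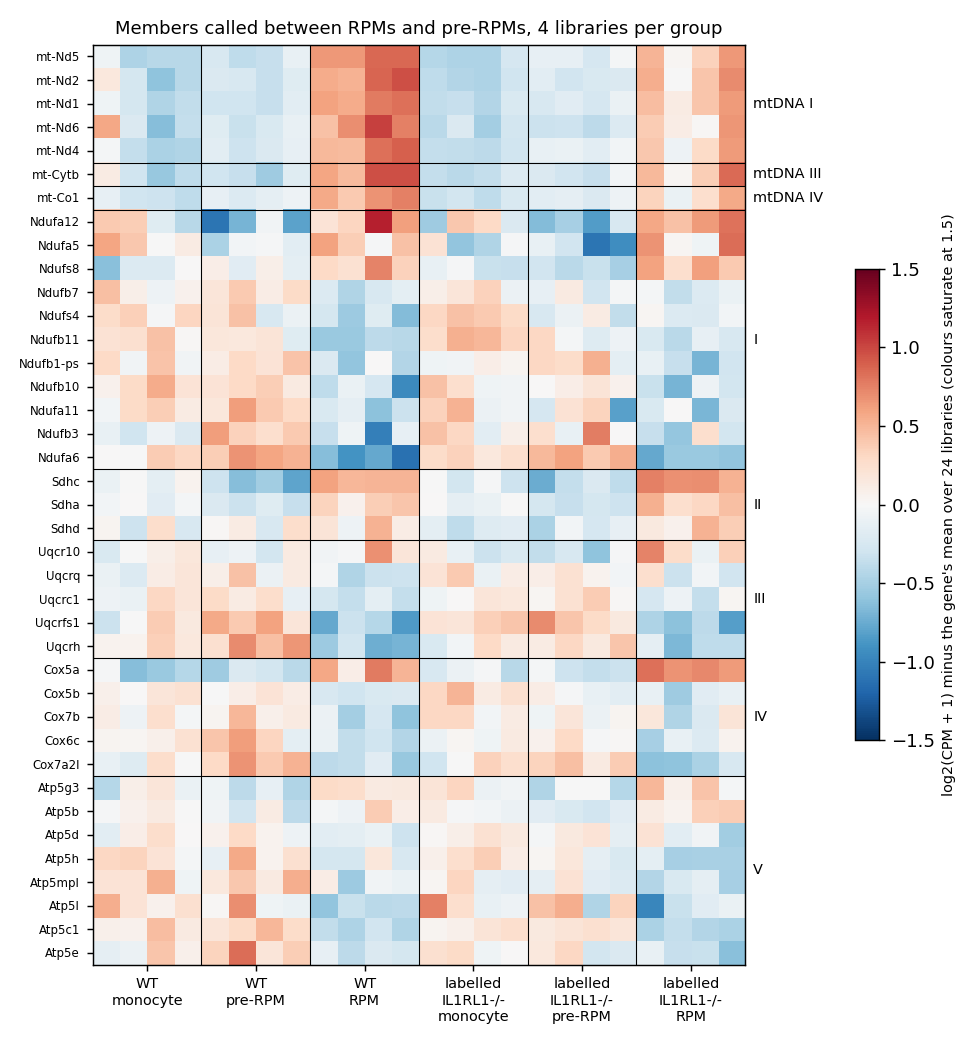
Log2(CPM + 1) of the members called between RPMs and pre-RPMs in either genotype, minus each gene's mean over 24 libraries, with genes in rows grouped by genome and complex and libraries in columns grouped by population (4 per group). The 7 mitochondrial rows are high in both RPM groups, Sdhc, Sdha and Cox5a share that pattern, and Ndufa6, Uqcrh, Uqcrfs1 and Cox7a2l show the opposite one.

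The calls of nuclear members were also set side by side between the genotypes. Between RPMs and pre-RPMs labelled IL1RL1-/- 10 of 76 nuclear members were called higher and 12 lower, where 27.3% of all genes were called higher and 26.7% lower, with a median of -0.04. Of these, 7 of the 10 higher and 11 of the 12 lower were called in the same direction in WT, which is 7 of 7 higher and 11 of 21 lower WT members, and 0 were called in opposite directions. Over the 10997 genes tested in both comparisons, 2448 were called higher in both, which is 87.4% of the 2802 in WT and 81.2% of the 3016 under the label IL1RL1-/-, and 2381 lower in both (86.5% and 80.1%), so shared calls were common among genes at large. The WT and IL1RL1-/- comparisons share no library.

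From monocytes to pre-RPMs few members changed. In WT 2 of 83 were called higher and 1 lower, where 5.79% of all 11091 genes were called higher and 8.85% lower. The medians of 0.02 for nuclear and 0.01 for mitochondrial members were near that of all genes (0.01). Sdhc was lower in pre-RPMs (-0.54 ± 0.15 SE, adjusted p = 0.0349), Ndufb3 higher (0.68 ± 0.20 SE, adjusted p = 0.0408; 4.89, 4.19, 5.05 and 4.49 CPM in monocytes) and Cox7a2l higher (0.49 ± 0.14 SE, adjusted p = 0.036; 35.6, 33.5, 46.3 and 38.4 CPM in monocytes). With the mouse number as a replicate block Sdhc and Ndufb3 no longer passed (adjusted p = 0.0542 and 0.0638), all 3 calls were lost without WT monocyte library 1, 2 or 4 or WT pre-RPM library 2, 3 or 4, and natural killer, neutrophil and plasma cell markers fell between the same libraries (13 of 13 tested genes of those lists). Their part in the result was not tested. By library totals 0 members were called higher and 8 lower, where 178 of all 11091 genes were called higher and 2389 lower.

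In the libraries labelled IL1RL1-/- 1 of 83 members was called higher in pre-RPMs than in monocytes and 1 lower, where 8.24% of all 11196 genes were called higher and 8.83% lower. The lower one, chosen after its values were seen, was Ndufs4, an accessory subunit of complex I (-0.53 ± 0.14 SE, adjusted p = 0.0246). With the mouse number as a block 5 members were called, adding mt-Nd5 (0.28, adjusted p = 0.024), mt-Nd4 (0.26, adjusted p = 0.036) and Cox5b (-0.35, adjusted p = 0.0307). DESeq2 without the block also called mt-Nd5 (adjusted p = 0.0241) and mt-Nd4 (adjusted p = 0.00783). The mitochondrial median there was 0.16, and mt-Nd5 was at 560.6, 548.7, 546.8 and 630.9 CPM in monocytes and 693.6, 692.8, 633.8 and 741.4 CPM in pre-RPMs, with each pre-RPM library above each monocyte library.

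Against monocytes, RPMs showed the same shape as against pre-RPMs. In WT 11 members were called higher and 17 lower, where 23.5% of all 11607 genes were called higher and 22.5% lower, and the 11 held all 7 mitochondrial members. Under the label IL1RL1-/- 13 were called higher and 12 lower, where 26.0% of all 11633 genes were called higher and 23.5% lower, again with all 7 mitochondrial members. The mitochondrial medians were 0.98 and 0.77 and the nuclear medians -0.20 and -0.11. By library totals the WT split was 7 higher and 19 lower, where 1907 of 11607 genes were called higher and 2754 lower. Cox5a rose by 0.93 ± 0.20 (SE, adjusted p = 0.00288) in WT and 0.96 ± 0.14 (SE, adjusted p = 0.000103) under the label IL1RL1-/-, and Ndufa6 fell in both (-1.10 and -0.91). Sdha rose in WT by 0.34 ± 0.11 (SE, adjusted p = 0.0293), a call lost with the mouse number as a block (adjusted p = 0.0527) and under several other alternatives, and mt-Nd6 by 0.81 ± 0.24 (SE, adjusted p = 0.0174), a call lost by library totals and without WT monocyte library 4 or WT RPM library 3. These comparisons share their RPM libraries with those against pre-RPMs.

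Few members changed by more than a doubling. When a call also needed a change of more than 1 on the log2 scale in either direction, and the adjusted p limit was 0.01, 6 members were called in WT RPMs against pre-RPMs (3 higher, mt-Cytb, Ndufa12 and Sdhc, and 3 lower, Ndufa6, Uqcrh and Uqcrfs1), where 24.7% of all genes were called, and 5 in the libraries labelled IL1RL1-/- (Sdhc, Ndufa5 and Ndufa12 higher, Ndufa6 and Uqcrfs1 lower), where 26.0% of all genes were called. Against monocytes 3 were called in WT RPMs (mt-Nd5, mt-Cytb and Ndufa6, where 23.9% of all genes were) and 0 in RPMs labelled IL1RL1-/- (25.9%), and between pre-RPMs and monocytes 0 in WT (3.57%) and 0 of those under the label IL1RL1-/- (4.85%).

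No member passed the test between the genotypes. In monocytes 0 of 83 were called (7 of 11405 genes, 0.0614%), in pre-RPMs 0 (59 of 10698 genes, 0.552%) and in RPMs 0 (26 of 11150 genes, 0.233%) by edgeR, and 0 by DESeq2. At an unadjusted p under 0.05 by edgeR there were 2 members in monocytes, where 410 of 11405 genes were. In pre-RPMs there were 9 members, where 941 of 10698 genes were. In RPMs there were 7 members, a count not set against all genes here. In RPMs the mitochondrial median was -0.32 and the nuclear median 0.07, with mt-Nd6 at -0.44 ± 0.15 (SE, adjusted p = 0.531) and mt-Nd5 at -0.36 ± 0.14 (SE, adjusted p = 0.596). All 7 mitochondrial members had overlapping groups there.

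The change from pre-RPM to RPM was also compared between genotypes with an interaction term over 16 libraries. No member was called, against 13 of 12150 genes (0.107%). An unadjusted p under 0.05 was found for 12 members, a count not set against all genes here. All 7 mitochondrial members had a negative term, that is a smaller rise under the label IL1RL1-/-, with a median of -0.36. The lowest adjusted p among them was 0.49, for mt-Nd5 (-0.49), and the nuclear median was 0.18. These 7 terms come from the same 16 libraries, so their shared sign is not 7 separate observations. For the change from monocyte to pre-RPM 0 of 11960 genes were called (0.0%). There 3 members had an unadjusted p under 0.05, again not set against all genes.

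Promoters were read for the nuclear members because their transcripts split into rising and falling genes. RefSeq (GRCm38.p6) gave start sites for 66 of 78 nuclear members, as 71 windows of 300 bases, from 250 bases before to 50 after the start, and the same windows of all genes (32851) served as the background. The motif of NRF1, a factor known to bind promoters of respiratory genes (letters GCATGCGC, either strand), was in 14.1% of member windows and 2.71% of all windows. That of YY1 (AAGATGGCG) was in 9.86% and 1.40%, that of GABP (CCGGAAGT) in 7.04% and 3.89%, and the CCAAT box (CCAAT) in 40.8% and 37.4%. The median GC content was 58.3% in member windows and 52.7% in all windows, and the letters of the NRF1 and GABP motifs contain mostly G and C, so base composition moves with these shares, and its part in them was not tested.

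Calls and medians of members with and without the NRF1 letters were set side by side. Of 10 members with these letters tested in WT RPMs against pre-RPMs 0 were called higher and 4 lower (median -0.27). Of 54 without them 6 were called higher and 14 lower (median -0.26). Between RPMs and pre-RPMs labelled IL1RL1-/- the counts were 0 higher and 3 lower of the 10 (median -0.20) and 9 higher and 8 lower of the 54 (median 0.05), and no test was made. The sequences of the 250 bases before the start are printed for the genes with the largest rise and fall in complex I and for Cox5a and Uqcrh, with matches to any of the 4 motifs in capitals. Ndufa12 and Cox5a, which rose, held none in these bases, Ndufa6 held the NRF1 letters and a CCAAT box, and Uqcrh the GABP letters on the opposite strand and a CCAAT box. Other called members did not divide in that way, as Sdha, Ndufs8 and Atp5g3, which rose, had a CCAAT box in their windows, and Uqcrfs1 and Cox7a2l, which fell, had none of the 4 motifs. A match is only a description of letters and shows no binding.
Ndufa12, chr10:94198785-94199034, plus strand: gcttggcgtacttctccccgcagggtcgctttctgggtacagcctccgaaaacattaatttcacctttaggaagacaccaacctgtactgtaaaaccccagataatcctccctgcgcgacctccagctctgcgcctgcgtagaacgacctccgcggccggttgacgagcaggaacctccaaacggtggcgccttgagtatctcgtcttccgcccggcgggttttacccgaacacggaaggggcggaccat
Cox5a, chr9:57520982-57521231, plus strand: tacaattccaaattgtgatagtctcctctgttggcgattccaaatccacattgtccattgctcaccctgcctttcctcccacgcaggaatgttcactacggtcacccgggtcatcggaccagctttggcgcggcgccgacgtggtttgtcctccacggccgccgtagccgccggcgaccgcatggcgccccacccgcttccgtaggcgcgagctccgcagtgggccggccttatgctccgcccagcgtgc
Ndufa6, chr15:82354292-82354541, minus strand: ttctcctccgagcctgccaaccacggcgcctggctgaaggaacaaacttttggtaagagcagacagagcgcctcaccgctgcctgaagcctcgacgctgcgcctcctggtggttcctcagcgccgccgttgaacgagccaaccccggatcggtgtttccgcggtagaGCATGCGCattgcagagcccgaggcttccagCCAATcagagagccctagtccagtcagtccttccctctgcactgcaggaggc
Uqcrh, chr4:116075071-116075320, minus strand: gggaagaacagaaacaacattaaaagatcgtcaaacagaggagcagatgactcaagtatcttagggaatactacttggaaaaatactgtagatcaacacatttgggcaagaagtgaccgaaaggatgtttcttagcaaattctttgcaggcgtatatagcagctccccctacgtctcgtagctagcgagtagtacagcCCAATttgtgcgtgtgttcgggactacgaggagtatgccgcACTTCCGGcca

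Other genes of the pathway were tested by lists, to be read against 25.6% of all genes called higher and 24.8% lower in WT RPMs against pre-RPMs and 27.3% and 26.7% under the label IL1RL1-/-. In WT RPMs against pre-RPMs 7 of 40 assembly factors were called higher and 2 lower (median 0.27), among them Ttc19 (0.99), which acts on complex III, and Coa7 (0.96), which acts on complex IV. Of 4 subunits and carriers that the name rule misses, Ndufab1, the acyl carrier protein of complex I, was higher (0.70) and Cox4i1, a nuclear subunit of complex IV, lower (-0.76). Of 76 genes of the mitochondrial ribosome 5 were called higher, Mrpl35 (1.07) among them, and 12 lower, Mrpl33 (-1.92) among them, with a median of 0.04. Of 14 genes of the tricarboxylic acid cycle 5 were higher, led by Suclg2 (1.01) and Idh2 (0.96), and 3 lower. Of 16 glycolysis genes 1 was higher, Hk3 (1.62), and 8 lower, led by Hk1 (-1.55), with a median of -0.57. For libraries labelled IL1RL1-/- the same lists gave 7 higher and 1 lower of 44 assembly factors, 1 and 1 of 4 missed subunits, 11 and 9 of 77 ribosome genes, 5 and 4 of 14 cycle genes and 1 and 8 of 16 glycolysis genes. In both genotypes the assembly factors and the ribosome genes were called less often, in either direction, than genes at large, which was not tested.

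Regulators of mitochondrial transcription and biogenesis showed 2 genes higher and 2 lower of 15 tested in WT. Ppargc1b, a coactivator of mitochondrial genes, was at 2.33, 3.94, 4.17 and 5.24 CPM in WT pre-RPMs and 26.7, 22.4, 21.6 and 23.1 CPM in WT RPMs, a change of 2.53 ± 0.20 (SE, adjusted p = 1.14e-07), and changed by 2.11 ± 0.19 (SE, adjusted p = 1.25e-07) in the libraries labelled IL1RL1-/-. The related Pprc1 rose by 1.02 and 0.60. Nrf1 was lower, by -0.55 ± 0.12 (SE, adjusted p = 0.00202) in WT and -0.47 ± 0.12 (SE, adjusted p = 0.00344) under the label IL1RL1-/-. Tfam (-0.19), Gabpa (0.03) and Esrra (0.18) passed the test in neither genotype, Polrmt, the mitochondrial RNA polymerase, passed in the libraries labelled IL1RL1-/- alone (0.47, against 0.26 in WT, and the difference between them was not tested here), and Ppargc1a was below the filter. The mitochondrial rRNAs gave 0 calls of 2 in both genotypes.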

How the data were processed

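RNA-seq counts per gene were used from 24 of the 48 samples of the study; the 24 ATAC-seq samples were not analysed here. The authors extracted total RNA, made stranded libraries, trimmed reads with cutadapt (version 2.8 in the submitters' processing notes), aligned them with STAR 2.5.1 (default parameters) to Ensembl GRCm38 and counted exon reads per gene with featureCounts, and the deposited values are raw counts, not normalised. How the counting step treated reads with several positions is not given in the sources used here.

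Genes were filtered by filterByExpr and libraries scaled by TMM. Each pair of groups (8 libraries) was tested with the quasi-likelihood test of edgeR 4.0.16 (R 4.3.3), with Benjamini-Hochberg adjustment over all genes tested and calls at an adjusted p of 0.05, and interactions over 16 libraries. CPM values are TMM-scaled. The SE is the log2 fold change divided by the square root of F. The smallest level that 3 counts allow, taken from library totals without TMM scaling, was 0.457 to 0.842 CPM, which covers counting error only. Within a genotype the same number marks the same mouse by the labels, so the numbers pair the samples; the correlations of same-numbered deviations were -0.0394 to 0.156 in WT and 0.049 to 0.306 in the group labelled IL1RL1-/-. Across genotypes the mice differ, but same-numbered deviations also correlated there, at 0.118 to 0.452 in monocytes, 0.0452 to 0.155 in pre-RPMs and 0.149 to 0.182 in RPMs. Every pair in monocytes and RPMs was above 0.1. Differently numbered libraries were not compared, so whether the numbers pair the genotypes was not tested. What same-numbered mice of both genotypes share is not given in the labels. The fit was tested on simulated data. Alternatives were DESeq2 1.42.0, other scalings, filters and thresholds, 1 model over all 24 libraries, blocking on the mouse number, and each library left out. In comparisons of a population between genotypes that block joined different mice with the same number.

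The members and gene lists were chosen with earlier results of these data known. The genes named were all mitochondrial and complex II members, Cox6b2, the genes called with the largest changes in each complex, the members that are not core subunits or are named as pseudogenes, the 2 largest called changes in each other list, and 7 regulators; any other is named as chosen after its values were seen. The result of 1 member is not reported here.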

Additional observations from a re-analysis of the deposited data

Results flagged for a closer look

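In 8 of 162 groups of 4 libraries tested the highest library stood apart from the others by Dixon's criterion, and chance flags about 1 in 20. WT monocyte library 1 accounted for 3 of them: mt-Nd5 was at 721.7 CPM against 548.5 to 566.6 CPM in the other libraries, the mitochondrial members took 0.594% of the counts against 0.333% to 0.367%, and their ratio to mitochondrial rRNA was 0.0617 against 0.0516 to 0.0529. In WT monocyte library 3 Atp5c1 was at 68.1 CPM, against 51.3 to 54.1 CPM. In WT pre-RPM library 1 the nuclear members took 0.167% of the counts, against 0.139% to 0.142%. In WT RPM library 1 Sdhc was at 27.9 CPM, against 26.1 to 26.2 CPM. Under the label IL1RL1-/- monocyte library 4 had mt-Nd5 at 630.9 CPM, against 546.8 to 560.6 CPM, and pre-RPM library 1 had Cox5a at 13.01 CPM, against 10.1 to 10.5 CPM.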

How the results depend on the processing

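Across the alternatives 335 of the total counts of called members and of the medians stayed within 1.5 times the count or within the spread between libraries, and 36 moved further. Of the other values (counts by direction, ratios, medians between genotypes and changes of single genes) 778 stayed so or kept their call, 66 moved further and 48 calls of single genes were lost. The stricter threshold (adjusted p under 0.01 and absolute log2 fold change above 1) left 0 members called between WT pre-RPMs and monocytes, 6 between WT RPMs and pre-RPMs, 3 between WT RPMs and monocytes, and 0, 5 and 0 in the same comparisons of libraries labelled IL1RL1-/-. Scaling by library totals called 8 members between WT pre-RPMs and monocytes, where 2567 of 11091 genes were called. It called 23 between WT RPMs and pre-RPMs (5175 of 11239 genes). Between pre-RPMs and monocytes labelled IL1RL1-/- it called 0 (1721 of 11196 genes). It moved the nuclear and mitochondrial medians to -0.36 and -0.38, to -0.0273 and 1.14, and to -0.38 and 0.76 in the 3 WT comparisons in that order, and the nuclear median to 0.0332 between RPMs and pre-RPMs labelled IL1RL1-/-, where it had been -0.0399. By library totals the sign of that median turned, as did those of both medians between WT pre-RPMs and monocytes. The nuclear median of the interaction from monocyte to pre-RPM also turned (0.25, against -0.12). The WT split between RPMs and pre-RPMs turned to 16 higher and 7 lower, where 3510 of 11239 genes were called higher and 1665 lower. All 24 libraries in a single fit gave 5 calls between WT pre-RPMs and monocytes and 4 in the libraries labelled IL1RL1-/-, where keeping every gene with at least 1 count gave 1 and the replicate block by mouse number gave 5. Keeping every gene with at least 1 count also called 1 member between genotypes in pre-RPMs, Atp5k-ps2 (-0.63, adjusted p = 0.0344 by edgeR). The cause of these changes was not tested. The block gave 2, 34 and 26 calls in the 3 WT comparisons, 5, 32 and 28 in those labelled IL1RL1-/- and 0 elsewhere, and changed no call of the genes named other than those given in the report and Ndufb3 between RPMs and pre-RPMs labelled IL1RL1-/- (adjusted p = 0.0327), Ndufa5 between RPMs and monocytes with that label (adjusted p = 0.0166), and Ndufb1-ps and Atp5k-ps2 (adjusted p = 0.0322 between WT RPMs and monocytes and 0.0419 between WT pre-RPMs and monocytes). Leaving out each library gave 0 to 7, 30 to 38 and 21 to 27 calls in WT and 0 to 3, 24 to 30 and 22 to 26 under the label IL1RL1-/-. The mitochondrial median between WT pre-RPMs and monocytes ranged from -0.0433 (without monocyte library 3) to 0.182 (without monocyte library 1), and the nuclear median between RPMs and monocytes labelled IL1RL1-/- from -0.157 to -0.0386. At this depth Cox6b2 and Atp5s did not pass the filter on low counts in any comparison.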
